A study of Mus musculus with 12 samples.

Results

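The genes described here carry out antigen presentation by major histocompatibility complex (MHC) class I. They are the heavy chains H2-K1 and H2-D1, the light chain B2m, the peptide transporter and loading genes Tap1, Tap2 and Tapbp, the immunoproteasome subunits Psmb8, Psmb9 and Psmb10, and the transactivator Nlrc5. The set was chosen by gene name, and all 10 members were among the 21743 genes of the deposited table. Drop-seq, a droplet method that counts one unique molecular identifier (UMI) for each captured RNA molecule from its 3′ end, was applied to the fourth mammary glands (MG) and to a mammary tumor (MT) of each of 2 mice. Both mice were MMTV-Cre; Brca1 flox/flox on a mixed C57BL/6 and 129/Sv background. MMTV-Cre acts in the mammary epithelium, so gland and tumor share the engineered Brca1 deletion and no wild-type library was analysed here, and the labels give no age. The cells had been enriched for epithelium by depletion of blood and endothelial cells before capture. Gland and tumor of mouse 1 are called MG1 and MT1, and those of mouse 2 MG2 and MT2. Each tumor came from a single animal, so a difference between the tumors and a difference between the mice cannot be told apart. Libraries of one tissue of one mouse repeat the preparation and not the animal, so the p-values below measure the spread between libraries.

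Class I molecules display short peptides from inside the cell to CD8+ T cells. The proteasome cuts proteins into these peptides, and under interferon the catalytic subunits of the constitutive proteasome can be replaced by Psmb8, Psmb9 and Psmb10, which form the immunoproteasome. The Tap1 and Tap2 dimer carries the peptides into the endoplasmic reticulum, where Tapbp (tapasin) tethers it to newly made heavy chains paired with B2m. Nlrc5 has no DNA-binding domain of its own and acts through factors at the class I promoters. Loss of class I from the surface is a known route by which tumors become less visible to CD8+ T cells.

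Of these genes, 7 (H2-K1, H2-D1, Tap1, Tap2, Tapbp, Psmb8 and Psmb9) lie on mouse chromosome 17 in the MHC region of GRCm38 (GENCODE vM21 annotation). Psmb9 at chr17:34181987-34187764, Tap1 at chr17:34187553-34197225, Psmb8 at chr17:34197721-34201454 and Tap2 at chr17:34203527-34216321 are neighbours. Psmb9 lies on the minus strand and its neighbours on the plus strand. Tapbp lies at chr17:33915899-33929292, H2-K1 at chr17:33996017-34000347 on the minus strand and H2-D1 at chr17:35262730-35267499. B2m lies at chr2:122147686-122153083, Psmb10 at chr8:105935735-105938444 and Nlrc5 at chr8:94434356-94527272. H2-K1 and H2-D1 are close paralogs whose 3′ ends can share reads, so their counts could be mixed by the counting step. Psmb9 and Tap1 overlap by 212 bases on opposite strands at their 5′ starts, away from the 3′ ends that were counted.

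Promoter sequence of H2-K1 and B2m and short windows of H2-D1 are shown because these genes rose together in the tumor of mouse 1, and a window each of Tap1 and Psmb8 because these also rose there. RefSeq promoters on GRCm38.p6, which run from 250 bases before to 50 bases after the annotated start, matched 8 of the 10 members, with Tap2 and Nlrc5 named only. Each sequence is written 5′ to 3′ on the strand of its gene, and capitals mark matches to the letters GAAANNGAA (an interferon regulatory factor core), GGGGATTCC (an NF-kB site), TGACG (a cyclic AMP response element core) or ATTGG (an inverted CCAAT box).
H2-K1 promoter, chr17:34000348-34000497, minus strand: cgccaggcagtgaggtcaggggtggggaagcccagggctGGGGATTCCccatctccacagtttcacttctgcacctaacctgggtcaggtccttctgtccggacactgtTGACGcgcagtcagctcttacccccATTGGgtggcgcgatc
B2m promoter, chr2:122147536-122147685, plus strand: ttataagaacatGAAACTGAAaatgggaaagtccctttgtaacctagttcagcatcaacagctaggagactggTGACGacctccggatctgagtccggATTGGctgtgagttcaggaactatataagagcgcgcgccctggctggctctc
H2-D1 NF-kB window, chr17:35262915-35262939, plus strand: ccagggctGGGGATTCCccatctcc
H2-D1 TGACG window, chr17:35262985-35263005, plus strand: gacactgaTGACGcgctggca
Tap1 TGACG window, chr17:34187462-34187482, plus strand: gagacaggTGACGacagaggg
Psmb8 window, chr17:34198090-34198114, plus strand: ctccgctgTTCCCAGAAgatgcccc

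The 25 bases of the H2-D1 NF-kB window are the same as those of H2-K1 at chr17:34000442-34000466. The windows of H2-D1, Tap1 and Psmb8, and the matches in Tapbp and Psmb9, lie within exons of the GENCODE annotation and not in sequence outside its transcripts. Each motif was searched on both strands. GGGGATTCC was held by 2 members, H2-K1 and H2-D1, and by 0.25% of 32851 promoters of the same length. TGACG was held by 5 members (H2-K1, H2-D1, B2m, Tap1 and Psmb9) and by 20.8% of promoters, ATTGG by 6 members (these 5 and Tapbp) and by 37.4%, and GAAANNGAA by B2m and by 8.56%. The search for GAAANNGAA used these letters in this order only, and its parts in the other order were not searched. Members without a match, H2-K1 among them, may therefore still hold an interferon element. In the Psmb8 window the capitals mark TTCNNNGAA, a gamma-activated site core that Psmb8 held with 8.3% of promoters. In H2-K1, H2-D1 and B2m, TGACG began 25 bases before ATTGG on the same strand, a spacing found in 31 of the 32851 promoters (0.0944%). This spacing was looked for after the sequences had been read. Psmb9 and Tap1 are divergent, and 275 bases of their promoters (chr17:34187306-34187580) are the same stretch read on opposite strands, so their motif matches are counted in both genes. A match is a description of letters and does not show binding.

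The table held 21157 cells in 12 libraries, 2 of MG1, 2 of MG2, 5 of MT1 and 3 of MT2. There were 818 MG1, 2335 MG2, 7690 MT1 and 10314 MT2 cells, and the libraries held from 693333 to 14841414 UMIs with medians of 1784 to 4842 UMIs per cell. MG1 replicate 2 had the fewest UMIs in total, with 105 cells, and the highest median per cell. Libraries shared between 0 and 7 cell barcodes, and all 15 pairs of libraries within a group differed beyond sampling noise. Clustering without the members and related pathway genes gave 11 clusters. Clusters named from their markers as immune-like, fibroblast-like or endothelial-like held 1116 cells, and the other 20041 cells entered the comparisons of tumor with gland. Brca1, the deleted gene, had no UMI in MG1 (which allows up to 0.994 CPM) and 19, 200 and 412 UMIs in MG2, MT1 and MT2, and 3′ counts cannot show the loss of internal exons. Epithelial genes were high in MG1, MG2 and MT1, whose libraries had Epcam at 1717 to 3863 CPM (counts per 1000000 UMIs). The MT2 libraries had Epcam at 8.94 to 23 CPM and the keratin Krt8 at 279 to 321 CPM, against Krt8 at 2109 to 4388 CPM elsewhere.

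The first question was whether the tumor cells of each mouse carried more or less of each class I gene than the gland cells of the same mouse. In mouse 1, 7 of the 10 members were higher in the tumor: both heavy chains, B2m, Tap1 and all 3 immunoproteasome subunits. Tap2 and Tapbp were lower and Nlrc5 did not pass the test. Of all 13666 genes tested, 59.4% passed in this comparison, 32.3% higher and 27.2% lower. In mouse 2 the picture was different: 6 members were lower (H2-K1, H2-D1, Tap1, Tap2, Psmb9 and Nlrc5), 1 was higher (Psmb10) and B2m, Tapbp and Psmb8 did not pass. Here 66.8% of all genes passed, 34.2% lower and 32.6% higher. The median log2 fold change over the members was 1.50 in mouse 1 and -1.09 in mouse 2, beside 0.10 and -0.05 over all genes tested. In sums over cells, fewer expressing cells and less RNA per cell cannot be told apart, so the levels by cluster and by cell are given further on.

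**Figure D1:**
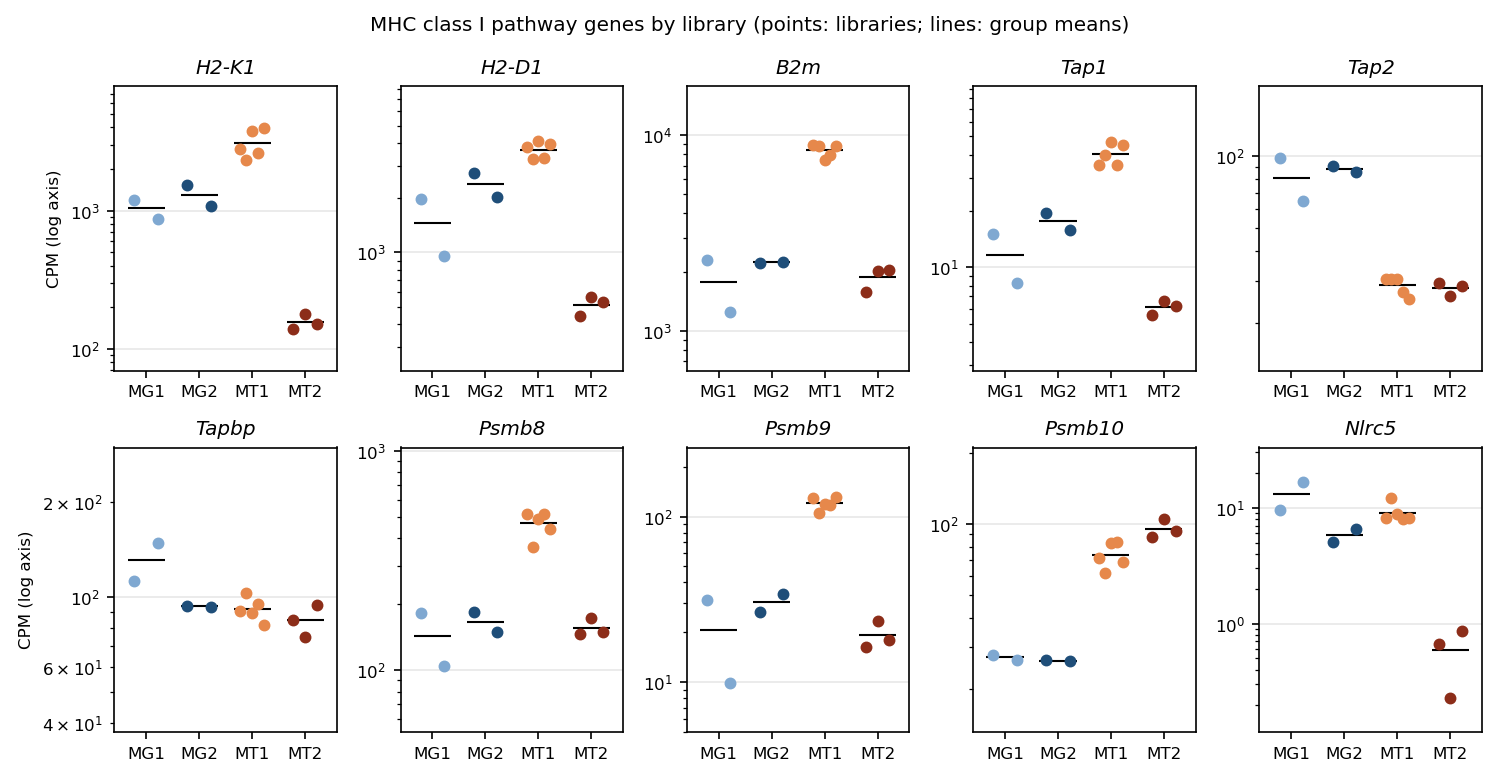
Level of each of the 10 members in each of the 12 libraries, in CPM on a log axis, over cells outside the stromal-like clusters. Each point is a library and each line a group mean. H2-K1, H2-D1 and Tap1 are highest in the 5 MT1 libraries and lowest in the 3 MT2 libraries, whereas Psmb10 is high in both tumors and Tap2 low in both.

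H2-K1, a classical heavy chain that binds the peptide, stood at 1205 and 876 CPM in the MG1 libraries and at 1536 and 1079.9 CPM in MG2. In MT1 it stood at 2771, 2327, 3795, 2618 and 3987 CPM, and in MT2 at 139, 180.2 and 152 CPM. Every MT1 library was above every gland library and every MT2 library below all others. The log2 fold change of tumor over gland was 1.57 ± 0.24 (SE) in mouse 1 and -3.06 ± 0.24 in mouse 2, with adjusted p = 3e-05 and 4.14e-09 (edgeR's quasi-likelihood test, Benjamini-Hochberg over all genes tested, as for every adjusted p of a fold change here).

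H2-D1, the other classical heavy chain, followed the same order. It stood at 1957 and 952 CPM in MG1, at 2733 and 2029 in MG2, at 3787, 3274, 4137, 3305 and 3946 in MT1 and at 442, 564 and 528 in MT2. As with H2-K1, no library of one tumor overlapped with any gland library. Its log2 fold change was 1.33 ± 0.24 in mouse 1 (adjusted p = 0.000127) and -2.22 ± 0.24 in mouse 2 (adjusted p = 2.15e-07).

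B2m, the light chain shared by class I molecules, was the member with the most UMIs in the tumors. It stood at 2318 and 1252 CPM in MG1, at 2230.0 and 2256 in MG2, at 8935, 8869.7, 7502, 7916 and 8860.3 in MT1 and at 1583, 2028 and 2040.1 in MT2. MT1 was thus far above every other library, while the MT2 values lay inside the range of the gland libraries. The log2 fold change was 2.23 ± 0.23 in mouse 1 (adjusted p = 3.98e-07). In mouse 2 it was -0.25 ± 0.22, which did not pass (adjusted p = 0.318), although both heavy chains had fallen in the same libraries.

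The peptide transporter subunits went separate ways. Tap1 stood at 15.0 and 8.27 CPM in MG1, at 19.6 and 15.8 in MG2, at 35.2, 39.6, 46.4, 35.4 and 45.1 in MT1 and at 5.60, 6.58 and 6.22 in MT2, the same order as the heavy chains. Its log2 fold change was 1.62 ± 0.24 in mouse 1 (adjusted p = 2.57e-05) and -1.52 ± 0.20 in mouse 2 (adjusted p = 3.14e-06). Tap2, its partner in the dimer, was instead high in the glands and low in both tumors, at 97.8 and 64.5 CPM in MG1, 90.8 and 85.3 in MG2, 30.5, 30.6, 30.5, 27.0 and 25.3 in MT1 and 29.5, 26.1 and 28.5 in MT2. All 8 tumor libraries lay below all 4 gland libraries, and the log2 fold change was -1.57 ± 0.17 in mouse 1 (adjusted p = 5.17e-07) and -1.65 ± 0.16 in mouse 2 (adjusted p = 5.01e-08).

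Tapbp, the loading chaperone, stood at 113 and 149 CPM in MG1, at 93.5 and 93.3 in MG2, at 90.4, 103, 89.0, 95 and 81.5 in MT1 and at 84.4, 74.6 and 94.5 in MT2. Its log2 fold change of -0.48 ± 0.16 in mouse 1 passed (adjusted p = 0.0149), but without MG1 replicate 2 it was -0.28 and did not. In mouse 2 it was -0.14 ± 0.16 (adjusted p = 0.434).

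The immunoproteasome subunits also split. Psmb8, which takes the place of Psmb5, stood at 183 and 104 CPM in MG1, 184 and 149 in MG2, 517, 366, 492, 518 and 443 in MT1 and 147, 172 and 149 in MT2. Psmb9, which takes the place of Psmb6, stood at 31.2 and 9.92 CPM in MG1, 26.5 and 34.1 in MG2, 130.3, 105, 119, 117 and 131 in MT1 and 16.4, 23.4 and 17.9 in MT2. The MT1 libraries were above every other library in both genes, and the MT2 libraries lay inside the range of the 4 gland libraries. Psmb10, which takes the place of Psmb7, was the only member that rose in both tumors, from 27.9 and 26.5 CPM in MG1 to 71.6, 61.6, 82.7, 83.9 and 69.0 in MT1, and from 26.5 and 26.1 in MG2 to 87.9, 105 and 93.1 in MT2. The log2 fold changes in mouse 1 were 1.64 ± 0.21 for Psmb8, 2.27 ± 0.26 for Psmb9 and 1.43 ± 0.20 for Psmb10 (adjusted p = 4.49e-06, 1.5e-06 and 8.95e-06). Psmb9 had 6 UMIs in MG1 replicate 2, and without MG1 replicate 1 its value was 3.61. In mouse 2, Psmb10 rose by 1.86 ± 0.17 (adjusted p = 3.69e-08), Psmb8 did not pass at -0.09 ± 0.20 (adjusted p = 0.702), and Psmb9 fell by 0.66 ± 0.23 (adjusted p = 0.0163). The Psmb9 call in mouse 2 was lost without any of 5 libraries, with values between -0.57 and -0.44, and with all cells (-0.56) or no filter on low counts (-0.54).

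Nlrc5, the transactivator of class I genes, was counted in few molecules. It stood at 9.57 and 16.5 CPM in MG1 (23 and 10 UMIs), at 5.02 and 6.58 in MG2, at 8.22, 12.2, 8.75, 8.02 and 8.15 in MT1, and at 0.663, 0.23 and 0.866 in MT2 (9, 3 and 11 UMIs in libraries of at least 13629813 UMIs). The MT1 range lay within the spread of the glands and MT2 was below every other library. The log2 fold change was -0.36 ± 0.37 in mouse 1 (adjusted p = 0.406) and -3.26 ± 0.41 in mouse 2 (adjusted p = 1.52e-06). Nlrc5 was thus one of 3 members, with H2-K1 and H2-D1, whose log2 fold change in mouse 2 fell below -2 in the fit across all genes.

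**Figure D2:**
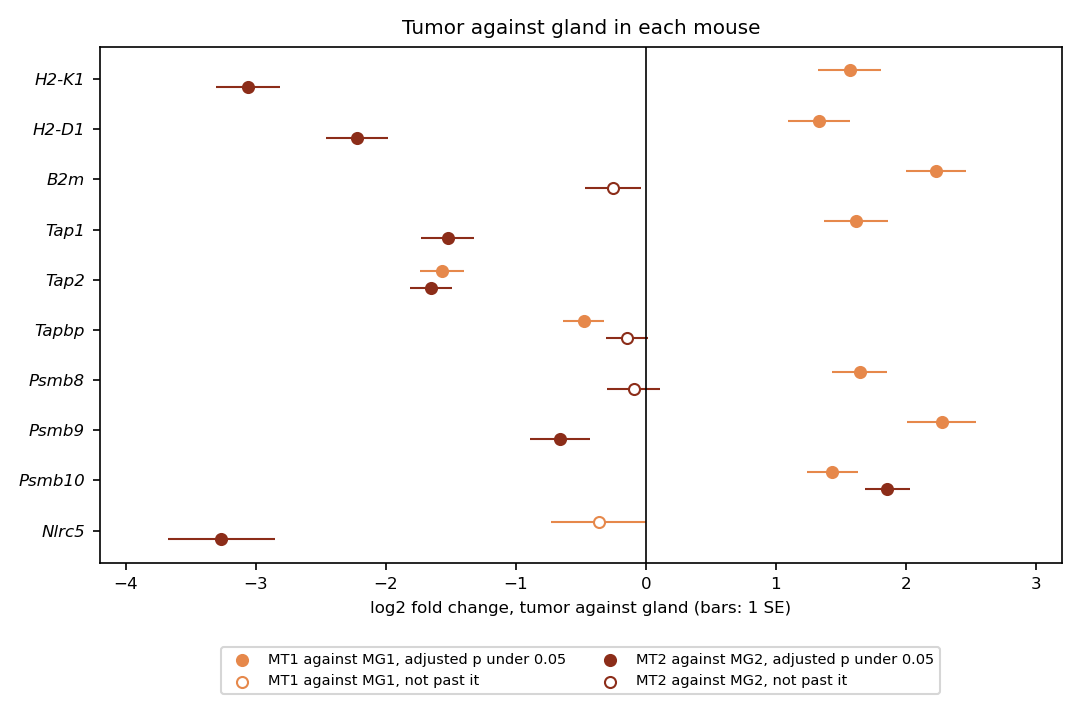
Log2 fold change of tumor over gland for the 10 members in mouse 1 and mouse 2, with bars of 1 SE from edgeR and filled symbols for genes past an adjusted p of 0.05. Tap2 and Psmb10 lie on the same side of 0 in both mice, whereas H2-K1, H2-D1, Tap1 and Psmb9 lie on opposite sides.

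The difference between the mice was tested as an interaction of tissue and mouse. Of the 10 members, 7 had a higher tumor-over-gland change in mouse 1, against 26.4% of all genes, and 0 had a lower one, against 17.2% (43.6% in either direction). The differences in log2 fold change were 4.63 for H2-K1, 3.55 for H2-D1, 3.14 for Tap1, 2.93 for Psmb9, 2.90 for Nlrc5, 2.48 for B2m and 1.74 for Psmb8. Tap2 (0.08), Tapbp (-0.33) and Psmb10 (-0.42) did not pass. Set directly against each other, MT1 was above MT2 in the same 7 genes, by 4.30 on the log2 scale for H2-K1, 3.89 for Nlrc5, 2.85 for H2-D1, 2.73 for Tap1, 2.65 for Psmb9, 2.16 for B2m and 1.58 for Psmb8, where 68.3% of all genes passed and 35.2% were higher in MT1. Psmb10 was lower in MT1 by a log2 difference of -0.36 (adjusted p = 0.0150), a direction that 33% of all genes had, and without MT2 replicate 2 the value was -0.29 and did not pass.

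With the animal as the replicate, a paired fit over the 4 sums of cells per mouse and tissue called 0 members and 0 of 14972 genes (0%). An unadjusted p under 0.05 was reached by 2213 genes. DESeq2 with the same pairing called 1347 genes and 1 member, Psmb10, at a log2 fold change of 1.74. In the edgeR fit, Tap2 (-1.59 ± 0.40) and Psmb10 (1.74 ± 0.42) both had adjusted p = 0.311.

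Across the 12 libraries, H2-K1 and H2-D1 had a Pearson correlation of log2 CPM of 0.98, B2m and Psmb9 of 0.99, B2m and Psmb8 of 0.98, and Tap1 and H2-D1 of 0.97. Tap2 and Psmb10 ran in opposite directions, with a correlation of -0.95. These values describe 12 libraries from 4 tissues that share animals, and no test was run on them. The genes outside the set whose pattern was most like the members' mean, of 13588 compared, were BC064078 and Noxo1 (both with a correlation of 0.992), then Krt23, Ociad2 and Shisa2 (all 0.991). Krt23, a keratin, had group means of 6.85 and 7.93 CPM in the glands of mouse 1 and mouse 2, 115 CPM in MT1 and 0.0992 CPM in MT2.

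The proteasome genes allow a readout that does not depend on library scaling, the share of the immunoproteasome subunit among its own UMIs and those of the constitutive subunit that it replaces. The Psmb8 share was 68.3% ± 10.1 (SD, 2 libraries) in MG1, 68.9% ± 1.02 (2 libraries) in MG2, 87.5% ± 1.51 (5 libraries) in MT1 and 64.1% ± 2.51 (3 libraries) in MT2. The Psmb9 share was 11.0% ± 7.46, 13.9% ± 1.91, 27.7% ± 2.14 and 9.26% ± 0.443 in the same order, and the Psmb10 share 25.1% ± 3.56, 47.0% ± 1.13, 59.0% ± 6.04 and 63.4% ± 8.56. By library the Psmb10 share was 27.6% and 22.5% in MG1, 46.2% and 47.8% in MG2, 55.7%, 50.5%, 59.8%, 65.3% and 63.7% in MT1 and 57.6%, 73.2% and 59.4% in MT2. The MT1 libraries were thus above the MG1 libraries in all 3 shares, whereas the MT2 libraries were above the MG2 libraries in the Psmb10 share and below them in the other two. Since 3′ capture can differ between genes, a share compares libraries and is not the composition of the proteasome.

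Tissue labels were permuted within each mouse in an exact two-sided test over the 12 libraries (210 arrangements, Benjamini-Hochberg over the 3 shares). The mean change over the mice was 25.1 percentage points for Psmb10 (33.9 in mouse 1 and 16.4 in mouse 2, exact adjusted p = 0.0143, higher in 8 of 8 tumor libraries than in any gland library of the same mouse). It was 7.17 points for Psmb8 (19.2 and -4.86) and 6.05 points for Psmb9 (16.7 and -4.61), which both had an exact adjusted p = 0.0952. The changes in the mice differed by 24.1 points for Psmb8, 21.3 for Psmb9 and 17.6 for Psmb10. These differences were not tested, since permuting tissue labels assumes no change in either mouse and not an equal change in both. Without MG1 replicate 1 or MG1 replicate 2 the Psmb10 change was 26.4 or 23.9 points with an adjusted p of 0.05, the smallest that the 60 arrangements left can give.

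**Figure D3:**
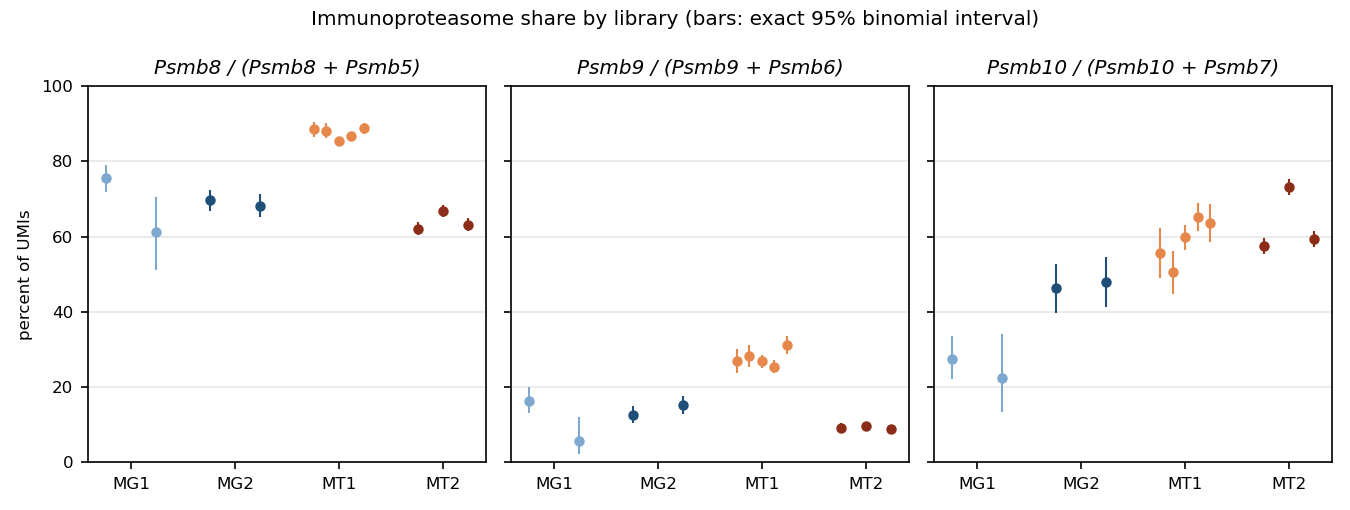
Share of Psmb8, Psmb9 and Psmb10 among the UMIs of each subunit and its constitutive counterpart (Psmb5, Psmb6 and Psmb7), in percent, for each of the 12 libraries as points, with bars for the exact 95% binomial (Clopper-Pearson) interval, which covers counting error only. The Psmb8 and Psmb9 shares are highest in MT1, and the Psmb10 share is higher in both tumors than in the gland of the same mouse.

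The cells of each tissue were then read by cluster, as a description, since clusters were formed from these cells. The gland held luminal hormone-sensing-like cells (267 in MG1 and 919 in MG2), luminal secretory-like cells (285 and 926) and basal-like cells (106 and 220). MT1 held 3 tumor clusters: cluster 3 (3544 MT1 cells, led by Sfrp1), cluster 4 (2475 cells, led by the chemokine Ccl20 and with Ubd, Cd74 and Ifi44 among its first genes) and cluster 5 (1345 cells, led by Prl2c3). MT2 held cluster 1 (5742 cells, led by Grem1) and cluster 2 (4022 cells, led by the mitotic genes Cenpe and Top2a). These tumor clusters took no cell type name, and 61 gland cells fell among them. Of 8 general epithelial markers, which were counted but name no cell type, 7 were raised over the other cells in cluster 4 and 3 in cluster 3, against 0 in clusters 1, 2 and 5.

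**Figure D4:**
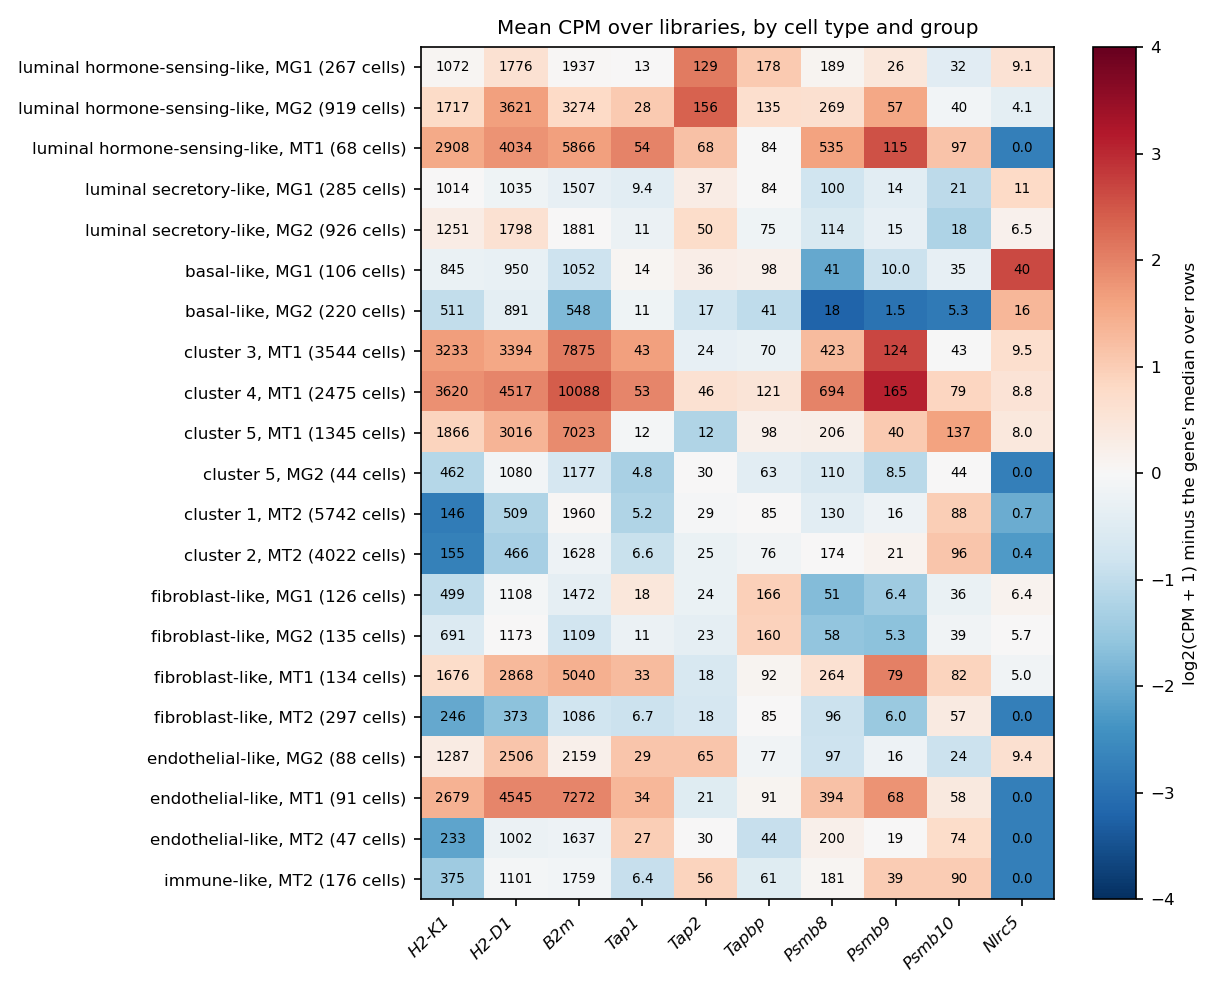
Heat map of each of the 10 members (columns) by cluster and group (lines of the map). The printed value is the mean CPM over libraries, and the colour is log2(CPM + 1) minus the median of the gene. The MT1 clusters 4 and 3 have the highest levels of H2-K1, B2m and Psmb9, the MT2 clusters 1 and 2 the lowest of H2-K1, and the hormone-sensing-like cells of the glands the highest of Tap2.

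Within MT1, cluster 4 stood above cluster 3 in 5 of 5 libraries for 9 of the 10 members. The share of all genes with this order was not counted, so the number of members is a description only. The median ratio over libraries was 1.13 for H2-K1, 1.33 for H2-D1, 1.30 for B2m, 1.25 for Tap1, 2.04 for Tap2, 1.68 for Tapbp, 1.64 for Psmb8, 1.29 for Psmb9 and 1.79 for Psmb10, and for Nlrc5 cluster 4 was higher in 3 of 5. Cluster 5 stood apart from both. Against cluster 5, cluster 4 was 4.78 times higher in Tap1, 4.07 in Psmb9, 3.29 in Psmb8 and 1.93 in H2-K1, but its Psmb10 level was 0.58 of that in cluster 5 and lower in each of the 5 libraries. Cluster 5, with the least Tap1 (12 CPM) and Psmb9 (39.9 CPM) of the MT1 clusters, thus had the most Psmb10, at 137 CPM. The Psmb10 share in pooled cells was 72.3% in cluster 5, 64.5% in cluster 4 and 46.8% in cluster 3, while the Psmb9 share was 10.9%, 34.0% and 28.1%.

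The summed level of 15 interferon targets differed along with these clusters. It was 1813 CPM in cluster 4, 1002 in cluster 3, 427 in cluster 5, 178 in cluster 1 and 228 in cluster 2, and 260 in hormone-sensing-like, 307 in secretory-like and 245 in basal-like cells. Each of these values pools the cells of a cluster over all groups. The hormone-sensing-like cells thus include 68 from MT1, and cluster 5 includes 44 from MG2. Per library the summed level was 1087 to 1364 CPM in MT1, 244 to 316 in the glands and 192 to 218 in MT2. Its part in the members' levels was not tested.

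In MT2 the heavy chains and Nlrc5 were low in both tumor clusters. H2-K1 averaged 146 CPM in cluster 1 and 155 in cluster 2, H2-D1 509 and 466, and Nlrc5 0.698 and 0.374. B2m was 1.20 times higher in cluster 1 than in the mitotic cluster 2, in 3 of 3 libraries, and Psmb8 in cluster 1 was 0.70 of its level in cluster 2, lower in 3 of 3. The low heavy chain levels of MT2 were therefore present in the cycling cluster and in the other, and the Psmb10 levels of 88 and 96 CPM were as high in both as in the whole libraries.

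Among the epithelial types of the glands, hormone-sensing-like cells carried more Tap2, Psmb8, H2-D1, Tapbp and B2m than secretory-like and basal-like cells in each of the 4 libraries. Tap2 averaged 128.7 CPM ± 10.2 (SD, 2 libraries) in hormone-sensing-like cells of MG1 and 156 ± 13.3 in MG2, against 36.7 ± 7.49 and 49.6 ± 12 in secretory-like cells. The secretory-like to hormone-sensing-like ratio had a median over the 4 gland libraries of 0.28 for Tap2, 0.47 for Psmb8, 0.53 for H2-D1 and for Tapbp, and 0.62 for B2m, and it was below 1 in each of the 4. In the tumor clusters Tap2 averaged 12.2 to 45.7 CPM in MT1 and 24.7 to 28.8 CPM in MT2, all below the hormone-sensing-like cells of the glands, and among them only cluster 4 overlapped over libraries with the secretory-like cells. Basal-like cells had Psmb8 at 41.1 CPM ± 15.3 in MG1 and 17.9 ± 9.41 in MG2, against 189 ± 57.1 and 269 ± 51.1 in hormone-sensing-like cells, and were lower in 4 of 4 libraries. Their Tap2 level was also lower in 4 of 4, at 35.5 ± 28.8 and 16.7 ± 2.41 CPM. Psmb9 rested on 5 and 0 UMIs in the basal-like cells of the MG1 libraries and on 1 and 0 in those of MG2, so no ratio is given. Nlrc5 was higher in basal-like than in hormone-sensing-like cells in 4 of 4 libraries, but on 5 and 4 basal-like UMIs in MG1 and 3 and 6 in MG2, so no ratio is given here either.

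Gland-type cells were also found in the MT1 libraries. The 68 hormone-sensing-like cells of MT1 had H2-K1 at 3030 CPM when pooled, against 1152 in MG1 and 1723 in MG2, and the 27 secretory-like cells of MT1 had 2989 against 1022 and 1252. The part of free tumor RNA in the counts of these few cells was not tested.

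The distribution over single cells was read after each cell had been thinned to 800 UMIs, which left out 0 cells. The summed UMIs of H2-K1, H2-D1 and B2m had a median of 14 per cell in cluster 4 (10th to 90th percentile, 7 to 22), 11 in cluster 3 (5 to 18) and 9 in cluster 5 (4 to 16). In MT2 the median was 2 in cluster 1 (0 to 4) and 1 in cluster 2, and 19.2% and 21.0% of these cells had no class I UMI at this depth. Hormone-sensing-like cells had a median of 5 in MG1 and 6 in MG2, secretory-like cells 2 and 3, and basal-like cells 2 and 1. The share with no class I UMI was 4.12% and 2.07% in hormone-sensing-like cells and 8.42% and 6.48% in secretory-like cells. In basal-like cells it was 14.2% in MG1 and 29.5% in MG2, so cells at 0 were not particular to MT2. The 10th percentile of cluster 4 was thus above the 90th percentile of cluster 1, so that in these clusters the difference lay in the bulk of the cells and not in a few. Class I is expressed by nearly all nucleated cells, so no cell type here could serve as one that lacks it, and a cell at 0 UMIs may still express these genes.

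**Figure D5:**
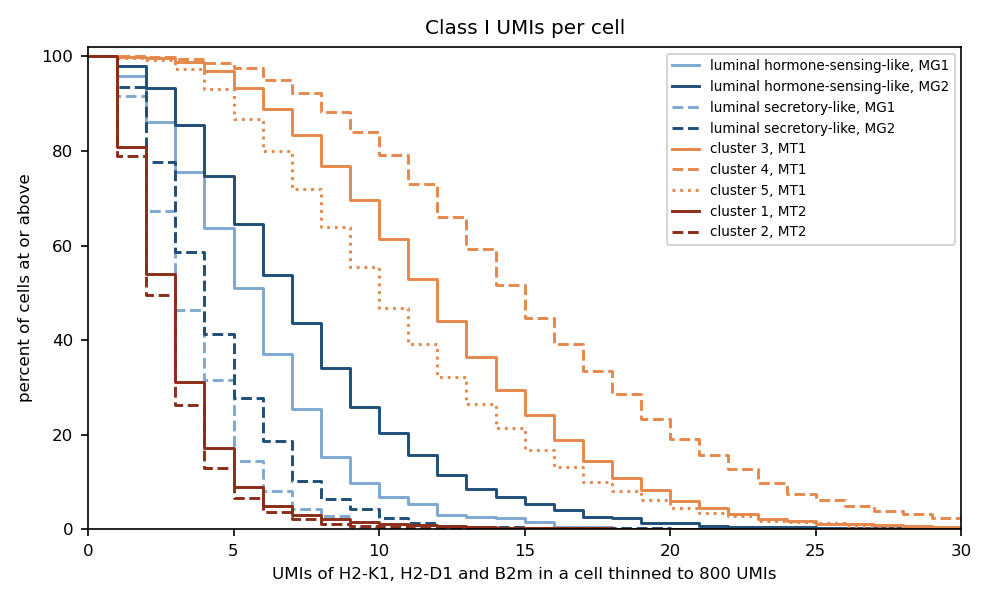
Percent of cells at or above each number of summed H2-K1, H2-D1 and B2m UMIs after thinning to 800 UMIs per cell, for the luminal types of the glands and the main tumor clusters. Basal-like cells are not drawn. Among the curves drawn, those of the MT2 clusters 1 and 2 lie lowest up to 8 UMIs. Those of the MT1 clusters 5, 3 and 4 lie highest, with the luminal gland types between them. From 9 UMIs the MG1 secretory-like curve (0.351%) lies below cluster 1 (1.43%) and cluster 2 (0.671%).

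A cell type present in both gland and tumor was then compared. Fibroblast-like cells numbered 126 and 135 in the glands MG1 and MG2, and 134 and 297 in the tumors MT1 and MT2, and 7 of the 10 members passed the filter on low counts there, with Tap1, Tap2 and Nlrc5 too low. At a finer resolution there was a fibroblast-like cluster of 412 cells, 97.3% of them from tumors, and another of 288 cells, 13.2% from tumors, so gland and tumor fibroblast-like cells were mostly in separate clusters. In mouse 1, 5 members were higher in fibroblast-like cells of the tumor (of 3877 genes 36.7% passed, 16.8% higher) and 0 were lower (19.9%). The 5 include Psmb9, which could pass the filter only through MT1 libraries, so the count is not read against these shares. In mouse 2, where 21.5% of genes passed, 0 were higher (8.95%) and 2 were lower (12.6%), the heavy chains H2-K1 and H2-D1.

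H2-K1 in fibroblast-like cells stood at 675 and 622 CPM in MG1, 814 and 879.7 in MG2, 1322, 979.9, 2421, 1682 and 2461 in MT1 and 259, 271 and 281 in MT2. H2-D1 stood at 1267 and 1628 CPM in MG1, 1431 and 1444 in MG2, 2693, 2608, 3452, 3022 and 3325 in MT1 and 285, 499.5 and 441 in MT2. For both genes every MT1 library was above every gland library and every MT2 library below, as in the cells outside the stromal-like clusters. The log2 fold changes were 1.46 ± 0.32 for H2-K1 and 1.07 ± 0.27 for H2-D1 in mouse 1 (adjusted p = 0.000969 and 0.00349), and -1.65 ± 0.32 and -1.82 ± 0.28 in mouse 2 (adjusted p = 0.000476 and 3.17e-05). Without MG1 replicate 1 the H2-D1 value in mouse 1 was 0.89 and did not pass.

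B2m rose by 1.47 ± 0.29 in mouse 1 (adjusted p = 0.000343), from 1620.5 and 2229 CPM to between 4637 and 5895, and stood at -0.20 in mouse 2, which did not pass. Psmb8 rose by 1.91 ± 0.43 in mouse 1 (adjusted p = 0.00117). Psmb9 rose by 2.95 ± 0.93 (adjusted p = 0.0145) on 28 UMIs in MT1 and 5 in MG1, and its call was lost without MG1 replicate 2 (2.46). All 5 MG1 UMIs came from MG1 replicate 1, so without it there is no count to set a fold against. Psmb9 could pass the filter on low counts in these cells only through MT1 libraries, where it was high. Beside these values, epithelial genes were also seen in fibroblast-like cells. Epcam stood at 12.8% of its level in the other cells of MG1, 10.4% in MG2 and 23.5% in MT1, and Krt8 at 15.7%, 11.3%, 29.6% and 34.3% in MG1, MG2, MT1 and MT2. In MT1 the fibroblast-like cells had H2-K1 at 52.8%, H2-D1 at 77.1% and B2m at 61.8% of the level in the other cells. In MT2, Grem1, which led the tumor cluster 1, stood at 50.4% of its level in the other cells. The part of free or mixed-in tumor RNA in the fibroblast-like changes was not tested. Endothelial-like cells, numbering 20, 88, 91 and 47 in MG1, MG2, MT1 and MT2, had pooled H2-K1 at 1293, 1342, 2620 and 237 CPM in that order, so that MT2 was again lowest. These few cells also held tumor genes, with Epcam at 57.1% and Krt8 at 58.3% of their level in the other cells of MT1 and Grem1 at 61.6% in MT2. Other genes were lower in MT1, such as Krt18 at 50.8%, Prlr at 26.0%, Csn3 at 19.8% and Ccl20 at 18.9%. The part of tumor RNA in the class I levels of endothelial-like cells was not tested.

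Immune cells also express class I genes, so their markers were read in the same sums, which leave out the immune-like cluster. Of the immune list, 3 to 11 markers were detected per library, and the defining marker Ptprc (CD45) had no UMI in MG1 and 7, 7 and 10 UMIs in MG2, MT1 and MT2. Summed over the whole list, immune markers came to 10.2 to 235 CPM in MG1, 8.37 to 18.8 in MG2, 45.7 to 126 in MT1 and 10.8 to 16.2 in MT2. Without Cd74, which epithelial cells can also express, they came to 2.26 to 40.4 CPM in MG1, 6.90 to 12.2 in MG2, 3.19 to 5.01 in MT1 and 10.3 to 15.5 in MT2. MT1 was thus above MT2 with Cd74 in the sum and below it without, and the part of these cells in the members' levels was not tested.

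Companion genes of the pathway were counted from lists named in full for the analysis. Of 15 interferon targets, 14 were higher and 0 lower in mouse 1, and 2 were higher and 10 lower in mouse 2, with medians of 2.58 and -1.75. Over all genes 32.3% were higher and 27.2% lower in mouse 1, and 32.6% higher and 34.2% lower in mouse 2, and these shares also stand beside the counts of the lists that follow. Ifit3, an antiviral effector, had log2 fold changes of 5.27 in mouse 1 and -1.44 in mouse 2, Usp18, which restrains interferon signalling, 3.28 and -4.58, Irf7 2.36 and -4.28, and Ifi47, a GTPase, 2.17 and -4.86. Cxcl10, a chemokine that attracts T cells, rose by 4.30 in mouse 1 and stood at 0.42 in mouse 2, and Ifit1 by 3.63 and at 0.04, and neither passed in mouse 2. The difference between the mice passed for 14 of the 15, each higher in mouse 1, where 43.6% of all genes passed and 26.4% were higher in mouse 1.

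Of 12 other class I heavy chains tested, 7 were higher and 3 lower in mouse 1 and 4 were higher and 6 lower in mouse 2, where the share higher was near that of all genes (32.6%). The 7 include H2-M2, which had 0 UMIs in both glands and could pass the filter on low counts only through MT1. The mouse 1 count is therefore not read against the share of all genes. H2-Q7, a non-classical chain of the Qa-2 group, stood at 186 and 82.7 CPM in MG1, 160.1 and 122 in MG2, 698 to 964 in MT1 and 2.58 to 3.86 in MT2, with log2 fold changes of 2.54 and -5.52. H2-Q6 had 1.86 and -6.59. H2-Q10 stood at -0.51 in mouse 1, where it did not pass, and at -6.60 in mouse 2. H2-M2 had 0 UMIs in MG1 and was at least 4.81-fold higher in MT1, against a floor of 3 counts over the group, and H2-Bl fell by 3.15 in mouse 1, had 0 UMIs in MT2 and was at least 23.3-fold lower there than in MG2. As with the classical chains, reads of these near-identical genes can be assigned to one another.

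Of 5 peptide loading and trimming genes outside the set, 3 were higher and 1 lower in mouse 1, and 2 were higher and 0 lower in mouse 2, where 66.8% of all genes passed in either direction, so the count says little about the list. Calr (calreticulin) rose by 0.81 and 0.83 and Pdia3, which joins the loading complex, by 0.53 and 1.26, while Tapbpl stood at -0.98 in mouse 1 and -0.35 in mouse 2, where it did not pass. Of the 4 proteasome activator and assembly genes, 2 were higher in each mouse: Pomp, the assembly chaperone, at 1.42 and 1.43, and Psme2 at 0.76 and 0.98. Psme1, the partner of Psme2 in the activator ring, was lower in mouse 1 (-0.66) and did not pass in mouse 2 (-0.11). Of the 3 constitutive subunits, Psmb5 passed in neither mouse (0.13 and 0.22), Psmb6 rose by 0.97 in mouse 1, and Psmb7 was lower in mouse 1 (-0.65) and higher in mouse 2 (0.91).

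Among 23 interferon signalling and class I regulator genes, 10 were higher and 4 lower in mouse 1 and 7 were higher and 5 lower in mouse 2. Of all genes 59.4% passed in mouse 1 and 66.8% in mouse 2, so the share of the list that passed was near the background in mouse 1 and below it in mouse 2. The list includes Ciita, which could pass the filter on low counts only through MT1, so no result about the list is read from these counts. Irf1, which acts at class I promoters, passed in neither mouse (0.35 and -0.26), although the difference of 0.62 passed, and Irf9 fell by 3.07 in mouse 2. Ifngr2 rose by 2.52 and 1.13, Ifnar1 by 1.60 and 1.47 and Socs1, a feedback inhibitor, by 1.88 and 1.85, so that these genes were higher in both tumors. Ciita, the class II counterpart of Nlrc5, had 51 UMIs in MT1 and 0 in MG1, at least 2.67-fold higher against the same floor, and 0 in MG2 and MT2.

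Ligands read by T and natural killer cells were tested last. Of 6 tested checkpoint and NKG2D ligand genes, 5 were higher in each mouse (32.3% and 32.6% of all genes). H60b, Raet1d and Raet1e had 0 UMIs in MG1 and could pass the filter on low counts only through other libraries, so the count is not read against the share of all genes. H60b, an NKG2D ligand, was at least 13.8-fold higher in MT1 than in MG1, where it had 0 UMIs, and had a log2 fold change of 5.11 in mouse 2. Ulbp1, another, had 579 UMIs in MT1 and 3 in MG1, a ratio of 30.3 (95% interval for counting error, 10.3 to 147), and a log2 fold change of 4.19 in mouse 2. Raet1e was at least 1.36-fold higher in MT1 than in MG1, where it had 0 UMIs, and had a log2 fold change of 4.47 in mouse 2. Lymphoid genes were not analysed here.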

How the data were processed

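Drop-seq libraries of the fourth mammary glands and tumors of 2 mice were analysed. Per the labels and the study's methods, the authors processed the reads with Drop-seq tools and STAR on GRCm38.p6 and deposited a table of raw UMI counts per gene and cell, in which each cell had at least 800 genes. Whether counting used strand is not given in the sources used here. Libraries were assigned to MG1, MG2, MT1 and MT2 from the labels. The 10 members and the companion lists were chosen with earlier results of these data known, and all members are named.

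The clustering used scanpy 1.11.5 with leidenalg 0.10.2 (3000 variable genes without the members and companions, 30 components, 20 neighbours, resolution 0.6). A cluster was named when at least 3 markers, and 50% of a cell type's list (the general epithelial list names none), had a log2 fold of 1 or more (pseudocount 10 CPM). Doublets were kept, because a caller marked 54 cells (0.255%), too few to be relied on, and leaving out the 5% with the highest scores was an alternative. Counts were summed per library outside stromal-like clusters, scaled by TMM, filtered with filterByExpr and tested in edgeR 4.0.16 (R 4.3.3) by the quasi-likelihood test over 12 libraries in 4 groups, with Benjamini-Hochberg adjustment over all 13666 genes and a threshold of 0.05. CPM are counts per 1000000 UMIs after TMM scaling, and pooled CPM by cluster are unscaled. DESeq2 1.42.0 was an alternative. Shares were tested by exact permutation in scipy 1.17.1. Gland and tumor are paired by the mouse number of the labels, so the paired fit used the mouse as a block over 4 sums. Companion genes named were the 3 largest called changes of each list in each mouse, and Psmb5, Psmb6, Psmb7, Psme1, Psme2 and Irf1. One further companion gene is not reported here. Clusters with 10 or more cells in a library gave levels by library. Intervals and the floor of 3 counts cover counting error only. The fits were tested on simulated data.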

Additional observations from a re-analysis of the deposited data

Results flagged for a closer look

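For 7 members the change from gland to tumor differed between the mice by the test of the interaction. The difference of log2 fold changes, mouse 1 minus mouse 2, was 4.63 for H2-K1, 3.55 for H2-D1, 2.48 for B2m, 3.14 for Tap1, 1.74 for Psmb8, 2.93 for Psmb9 and 2.90 for Nlrc5. The immunoproteasome shares of Psmb8 and Psmb9 were higher in every MT1 library than in the MG1 libraries and lower in every MT2 library than in the MG2 libraries, so that the changes differed by 24.1 and 21.3 percentage points, a difference that was not tested. In each case the comparison is of 1 mouse with 1 mouse, and the tumor of mouse 2 also had little Epcam and Krt8.

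Nlrc5 stood at 12.2 CPM (31 UMIs) in MT1 replicate 2, farther from the other 4 MT1 libraries (8.02 to 8.75 CPM) than the 95% limit of Dixon's test for 5 samples. Chance alone flags about 5% of groups.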

How the results depend on the processing

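The calls that lead the report kept their direction in every alternative run that gave a value. Over the alternatives, the members called numbered 8 to 9 in mouse 1, 6 to 7 in mouse 2, 7 for the difference between the mice, 7 to 8 between the tumors, and 4 to 5 and 2 to 3 in fibroblast-like cells. RLE in place of TMM scaling moved the median log2 fold change of all genes in mouse 1 from 0.10 to 0, and that of the difference from 0.15 to -0.00. The direction of some members that had not passed turned, and the cause was not tested. Psmb8 in mouse 2 was 0.027 without the low-count filter and -0.21 to 0.10 with 1 library left out, and Tapbp in mouse 2 -0.25 to 0.0053. The Tap2 difference between the mice was -0.064 with RLE, -0.083 with DESeq2, -0.045 without the filter and -0.12 to 0.48 with 1 library left out. Tap2 in MT1 against MT2 was -0.020 with RLE, -0.022 with DESeq2, -0.073 without the filter and -0.078 to 0.082 with 1 library left out, where Tapbp was -0.014 to 0.22. In fibroblast-like cells of mouse 2, B2m was -0.41 to 0.042 and Psmb9 -0.98 to 3.08 with 1 library left out, where 3.08 is a fitted value against 0 UMIs in the MG2 library left and the highest of the others was 0.22. In the paired fit of mouse sums, leaving out the mouse block called 0 members as well and turned H2-K1 to 0.52 and H2-D1 to 0.10. DESeq2 with the mouse as block called 1 member. The Psmb10 share changed by 22.7 to 26.6 points with 1 library left out, and its adjusted p of 0.05 without MG1 replicate 1 or 2 is the smallest possible there. In fibroblast-like cells, Psmb9 in mouse 1 (2.55) no longer passed without the highest doublet scores, and Tapbp in mouse 2 (-1.07) passed in 4 alternatives. At resolution 1, 144 of 145 levels by cluster moved by less than 1 SD. MG1 has the fewest UMIs in total, and each comparison of tissues rests on 1 mouse.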
